A study of Coturnix japonica with 24 samples.

Results

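The abdominal fat of male quail (Coturnix japonica, the Japanese quail) was compared between 2 long photoperiods, 16 hours of light a day (16v) and 12 hours (12v). The comparison rests on 8 of the 24 libraries of the series, 4 per photoperiod, taken by their labels; the other libraries are adipose tissue of 4 quail samples on 8 hours of light (8L) and the liver samples of the same 3 photoperiods. Per the labels, all birds had been housed in 16 hours of light and 8 hours of dark before they were assigned to a photoperiod. The light hours of 16v thus equal those of the housing. The labels do not say what the v of 12v and 16v stands for. The 16v group therefore cannot be taken as unchanged housing. The sources used here do not give strain, age or length of exposure, nor do they state that each numbered sample is a separate bird, so tests measure the spread between these samples. Polyadenylated RNA was reverse transcribed, amplified by PCR, barcoded and sequenced on a Nanopore GridION.

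Adipose tissue stores energy as triglyceride in adipocytes. Lipoprotein lipase frees fatty acids from circulating lipoproteins, acyltransferases and lipins join them to glycerol inside the cell, and lipases release them again when energy is needed. In birds the liver, rather than adipose tissue, makes most new fatty acids, so fat depots depend largely on uptake from the blood. Photoperiodic birds such as quail adjust body mass, fat stores and gonads to day length.

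Total counts per library were 465716, 786946, 301345 and 1350559 in 12v replicates 1 to 4, and 543978, 72716, 667641 and 1148031 in 16v replicates 1 to 4, the order used for all values below. Replicate 2 of 16v was the shallowest: 5017 genes had a count there against 8733 to 12027 in the other 11 adipose libraries, and 3 counts there equal 36.5 CPM (a count relative to its library's total after TMM scaling). Its log2 CPM had a median correlation across genes of 0.581 with the other 7 libraries, against 0.745 to 0.808 for each of those. The tissue label was borne out by adipocyte genes. The adipocyte identity list summed to 62648, 43537, 54798 and 39187 CPM in 12v and 65801, 28496, 55103 and 46266 CPM in 16v, with its lowest value in the shallow library. FABP4, the fatty acid binding protein of adipocytes, alone took 1.58% to 4.72% of the counts of a library. A set of 17 loci with near-identical counts, which carry a locus number only, took 3.15% to 26.5%; whether these are copies of a single transcript was not tested.

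Skeletal muscle RNA differed widely among the 8 libraries, and was high in single libraries of both photoperiods. Summed over 46 measured genes of the contractile apparatus (of 50 listed), the level was 458, 14622, 1507 and 819 CPM in 12v and 472, 13032, 408 and 103164 CPM in 16v. Replicate 4 of 16v stood highest, 12v replicate 2 and 16v replicate 2 came next, and the other 5 libraries lay at or below 1507 CPM. In the 8L group the sum was 6977, 999, 705 and 329 CPM. As a share of all counts, these genes made up 8.68% in the highest of these libraries, 1.36% in 12v replicate 2 and 1.47% in 16v replicate 2. When a single transcript stood for each gene the shares were 4.06%, 0.560% and 0.748%. In bulk tissue, fewer cells of a type and less RNA per cell cannot be told apart.

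The same libraries stood out gene by gene. ACTA1, the actin of skeletal muscle fibres, had 7.63, 685, 64.1 and 10.8 CPM in 12v and 5.01, 1069.8, 10.4 and 5999.9 CPM in 16v. TNNT3, the fast-fibre troponin T that anchors the troponin complex on the thin filament, had 0, 7399, 916 and 209.7 CPM in 12v and 0, 4449, 1.49 and 52966 CPM in 16v. MYLPF, a regulatory light chain of fast myosin, had 0, 709, 99.1 and 7.46 CPM in 12v and 8.35, 365, 2.97 and 3881 CPM in 16v. Each of these genes was abundant in 1 library of 12v and in 2 of 16v, and lower in the remaining libraries of both groups, of which 12v replicate 3 held the most. NEB, which encodes the thin-filament ruler nebulin, had 0, 2006, 0 and 0 CPM in 12v and 0, 2407, 0 and 10697 CPM in 16v, with no count in 5 of the 8. Reads appear to be counted on each transcript of a gene. TNNT3 and NEB have 50 transcripts each, so their CPM cannot be set against those of other genes. The largest NEB transcript had 30 counts in 12v replicate 2, and 4 and 210 in 16v replicates 2 and 4. In 16v replicate 4 the largest transcript had 1379 counts for TNNT3, 5531 for ACTA1 and 3748 for MYLPF. The calcium buffer parvalbumin (PVALB) reached 2096 CPM and the oxygen carrier myoglobin (MB) 296 CPM in 16v replicate 4. Of the 46 genes, 1 had no count in 16v replicate 4 and 40 had none in 12v replicate 1. Counted in CPM, TPM2, a tropomyosin that smooth muscle also makes, held most of what remained in the cleanest libraries. Its share of the sum was 86.7% for 12v replicate 1 and 90.5% for 16v replicate 1, against 5.03% where muscle genes were highest. TPM2 has 12 transcripts, and the largest had only 12 counts in the former library and 19 in the latter. Its shares therefore depend on transcript numbers and cannot be read as shares of reads.

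**Figure D1:**
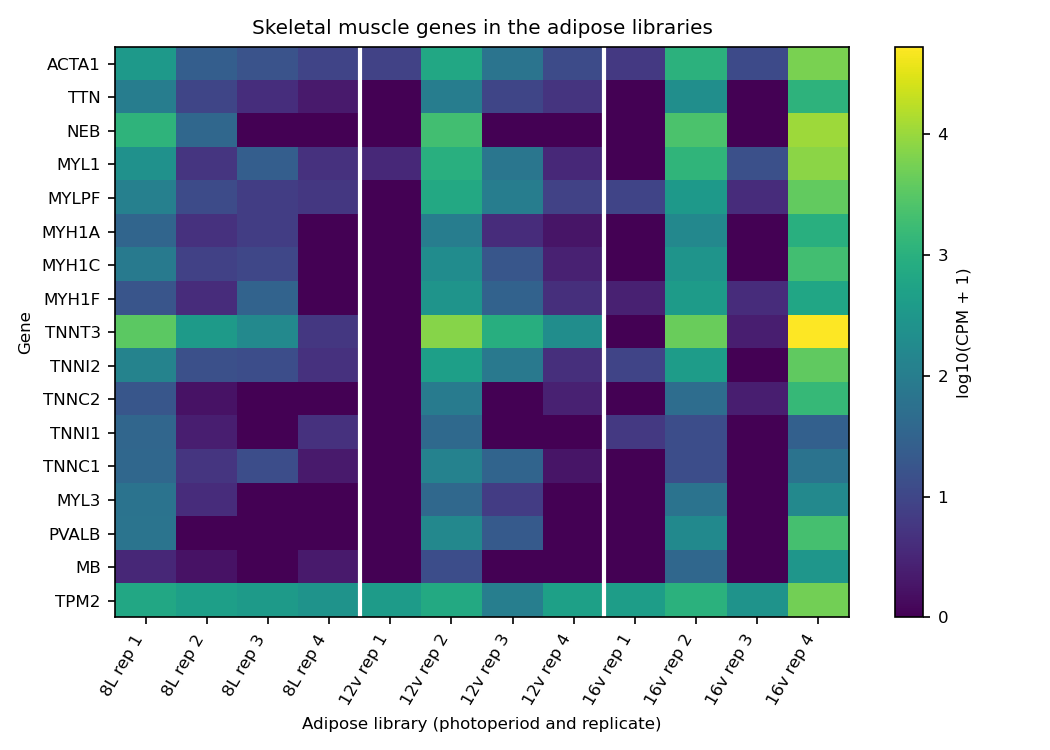
Skeletal muscle genes (rows) in the 12 adipose libraries (columns, grouped by photoperiod), coloured by log10(CPM + 1). Replicate 4 of 16v, replicate 2 of 12v and replicate 2 of 16v carry the genes at high level, with TNNT3 at 52966 CPM in 16v replicate 4. That value sums over 50 transcripts, the largest of which had 1379 counts there.

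The shares of fast and slow troponin C differed between the library richest in muscle RNA and 12v replicate 2. Troponin C comes in a fast form (TNNC2) and a slow form shared with the heart (TNNC1). In 16v replicate 4 the fast form gave 1434 of 1494 troponin C counts, or 96.0% (95% Clopper-Pearson interval 94.9% to 96.9%, counting error only). In 12v replicate 2 it gave 66 of 157, or 42.0% (34.2% to 50.2%), so the 2 intervals do not meet. Replicate 2 of 16v had only 4 fast and 1 slow counts, too few to compare. Troponin I was mostly of the fast form in both: TNNI2 (fast) had 467 CPM against 39.8 for TNNI1 (slow) in 12v replicate 2, and 3706 against 26.9 in replicate 4 of 16v. Replicate 1 of 8L, the next highest in contractile sum, had 15 fast and 31 slow counts. Of the 12 liver libraries, each had at most 1 count of ACTA1, none of TNNT3 and at most 11 of MYLPF, while the contractile list summed to 269 to 6810.1 CPM (median 684). The highest liver sum was in 12v replicate 3, a library of 72125 counts with only 3 contractile genes counted and none of ACTA1, MYLPF or TNNT3.

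Contractile genes had higher means in 16v, but their levels did not separate the groups. Of 22 members that passed the count filter, 21 had a higher fitted level in 16v, with a median log2 fold change of 3.11. The 16v and 12v values of all 22 overlapped, as did those of most genes. Of all tested genes, 1.2% were higher and 1.83% lower in 16v without overlap. Replicate 4 of 16v held the highest of the 8 values for 20 of the 22, and 12v replicate 2 the highest 12v value for 21. With 1 library left out at a time the median ran from 0.372, without 16v replicate 4, to 5.76, without 12v replicate 2. In 3 libraries the contractile sum exceeded 10 times the median of the 12 (909 CPM). Without them the median log2 fold change over 14 tested members was -1.96, with 3 above 0. They were picked by these same genes, so a fall of this median follows from the choice. Among the 12v and 16v libraries kept, 12v replicate 3 was the highest, at 1507 CPM. Leaving out these 3 libraries leaves 3 of 12v and 2 of 16v, and the values without them are given below for most genes and lists.

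**Figure D2:**
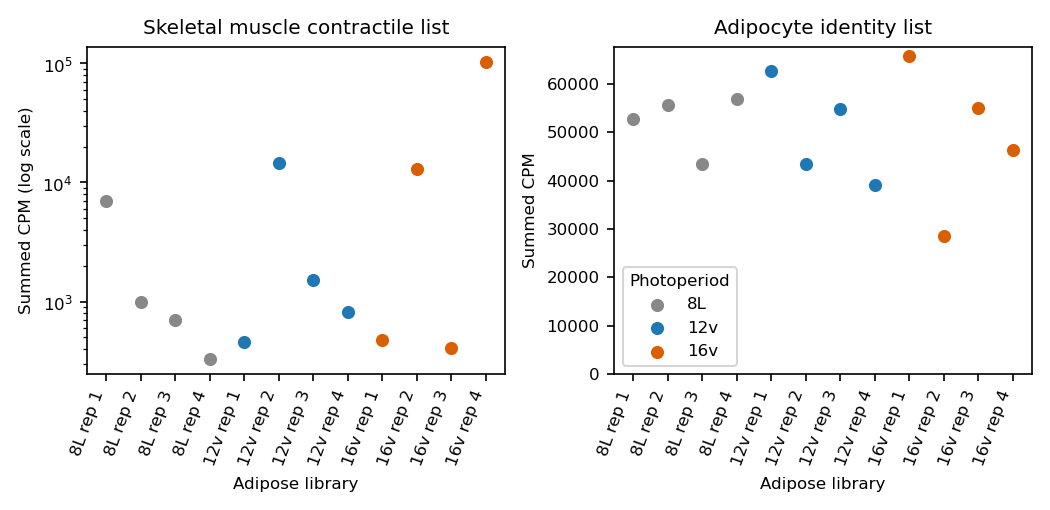
Summed CPM of the skeletal muscle contractile list (log axis) and of the adipocyte identity list in each adipose library, by photoperiod. The contractile sum spans from 408 to 103164 CPM within 16v, while the adipocyte sum spans from 28496 to 65801 CPM there.

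Across the transcriptome, no gene differed between 16 and 12 hours of light at an adjusted p under 0.05. In edgeR's quasi-likelihood test with Benjamini-Hochberg adjustment, 0 of 6494 genes passed (0% called) and the adjusted p was 0.991 or higher for every gene, those named below included. At an unadjusted p under 0.05 there were 304 genes (4.68%), 146 higher in 16v (2.25%) and 158 lower (2.43%). Groups did not overlap for 78 genes that were higher in 16v (1.2%) and for 119 that were lower (1.83%), and 64 of those 119 had no count in the shallow 16v replicate 2. The median log2 fold change over all tested genes was -0.03, and the median standard error was 0.55. limma-voom, run as an alternative, called 0 genes with 374 at an unadjusted p under 0.05. DESeq2, another alternative, had 375 at that level and called 5 genes, among them SLC1A6 and CADM1 as higher and FBXL7 and CACNB2 as lower. With a muscle score as a covariate, edgeR again called 0 genes and 258 had an unadjusted p under 0.05, 216 of them among the 304 with the same sign. Of the 5 DESeq2 genes, only SLC1A6 rested on more than a few reads per library.

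The genes higher in 16v with the smallest p included a transporter, a lipid enzyme and a transcription factor. SLC1A6, a sodium-coupled glutamate transporter, had 71.2, 125, 81.6 and 110.2 CPM in 12v and 538, 425, 219 and 189.5 CPM in 16v. Every 16v value lay above every 12v value. SLC1A6 has 7 transcripts, and the largest had 4, 13, 4 and 19 counts in 12v and 46, 5, 21 and 27 in 16v. The means were 96.9 ± 24.8 and 343 ± 167 CPM (SD, n = 4 each), and the log2 fold change was 1.80 ± 0.38 (SE; 95% confidence interval 0.99 to 2.61). Its adjusted p in DESeq2 was 0.0102, and without the 3 muscle libraries the log2 fold change was 2.09. The 8L mean of 279 ± 51.1 CPM was closer to that of 16v than to that of 12v.

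LPIN1, a lipin that removes phosphate from phosphatidic acid on the way to triglyceride, had 61.0, 115, 175 and 204 CPM in 12v and 280.4, 584, 892 and 290.0 CPM in 16v. The groups did not overlap, although the 16v libraries spread over a wide range. LPIN1 has 12 transcripts, and the largest had 2, 7, 5 and 21 counts in 12v and 14, 4, 50 and 24 in 16v. The log2 fold change was 1.87 ± 0.56 (0.67 to 3.08), and 1.99 without the muscle libraries. KLF15, a transcription factor that controls amino acid and lipid metabolism and responds to glucocorticoids in mammals, had 94.1, 98.7, 140.0 and 139 CPM in 12v and 401, 146, 286 and 336 CPM in 16v. These groups did not overlap either, with a log2 fold change of 1.33 ± 0.41 (0.44 to 2.22). The margin was narrow, 146 against 140.0 CPM, and the 146 CPM of 16v replicate 2 rested on 1 count of the largest KLF15 transcript. COL4A3BP, the ceramide transfer protein, averaged 51.1 ± 16.8 CPM in 12v and 119.9 ± 27.5 CPM in 16v (1.22 ± 0.37). COQ9, needed to make coenzyme Q for the respiratory chain, averaged 28.4 ± 5.58 and 82.1 ± 34.5 CPM (1.51 ± 0.40, and 0.88 without the muscle libraries). BEND5 averaged 13.3 ± 8.88 and 58.4 ± 24.1 CPM (1.95 ± 0.57). Its largest transcript had only 1, 3, 2 and 6 counts in 12v and 5, 1, 4 and 8 in 16v. Without the muscle libraries KLF15 stood at 1.45, COL4A3BP at 1.41 and BEND5 at 1.60.

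Other genes on that side rested on very few reads. A read appears to be counted on each transcript of its gene, so the count of the largest transcript is given as an approximation of reads. SIRT4, a sirtuin of mitochondria, had 0, 0, 0 and 1 such counts in 12v and 3, 1, 3 and 5 in 16v. CADM1, a cell adhesion molecule, had none in 12v and 2, 2, 1 and 4 in 16v. Against a floor of 3 counts over the 12v group this is 3.46-fold, with the 16v counts taken as exact. G2E3, a ubiquitin ligase, had 0, 0, 0 and 1 in 12v and 1, 0, 4 and 5 in 16v, and the scaffold protein gene GRIP1 had none in 12v and 3 over the 16v libraries. These counts do not allow a fold change to be read with confidence.

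The genes lower in 16v with the smallest p were mostly of low abundance. HOXA3, a homeobox gene of axial patterning, had 78.8, 78.1, 29.2 and 77.9 CPM in 12v and 3.34, 0, 11.9 and 14.5 CPM in 16v (-2.81 ± 0.65). FBXL7, an F-box protein, had 2, 7, 2 and 7 counts on its largest transcript against 1, 0, 0 and 0. CACNB2, a calcium channel subunit, had 2, 3, 2 and 3 against 0, 0, 0 and 1, and ARHGAP15, a GTPase-activating protein, 2, 2, 1 and 3 against 0, 0, 1 and 1. For these 4 genes the groups did not overlap, but the shallow 16v replicate 2 had no count for any of them. SERTAD4 (-2.06 ± 0.52) and ZCCHC8, part of a complex that targets RNA to the exosome (-1.65 ± 0.47), also had no count there. Leaving out the muscle libraries, that one included, gave -2.08 for SERTAD4 and -1.79 for ZCCHC8.

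Among the other genes on the lower side, ITPK1, an inositol phosphate kinase, averaged 78.1 ± 22.7 CPM in 12v and 22.9 ± 13.3 CPM in 16v (-1.67 ± 0.48). Its largest transcript had 4, 7, 6 and 18 counts in 12v against 4, 1, 3 and 2 in 16v. KIAA1671 averaged 78.0 ± 28.5 and 29.1 ± 12.6 CPM (-1.31 ± 0.38), with 4, 15, 4 and 16 such counts against 4, 0, 3 and 6. LMO2, a transcriptional cofactor of blood and endothelial cells, had 58.5, 152, 75.8 and 105 CPM in 12v and 50.1, 48.6, 35.7 and 21.7 CPM in 16v. The LMO2 groups were separate by a narrow margin, 58.5 against 50.1 CPM, with a log2 fold change of -1.39 ± 0.40 and -0.92 without the muscle libraries. Without them ITPK1 stood at -1.35 and KIAA1671 at -0.98.

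Among adipocyte genes, lipoprotein lipase and adiponectin lay on opposite sides. LPL, which frees fatty acids from circulating triglyceride, had 717, 689.6, 604 and 676 CPM in 12v and 1829.5, 693, 1526 and 1351 CPM in 16v. In 3 of the 4 libraries of 16v the level was over that of every 12v library, and the shallow replicate 2 lay inside the 12v range. The means were 672 ± 48.4 and 1350.0 ± 480.5 CPM, the log2 fold change 1.01 ± 0.34 (0.27 to 1.75), and the 8L mean 1425 ± 469.7 CPM. ADIPOQ, the adipokine adiponectin, had 244, 247, 111 and 234 CPM in 12v and 137, 97.3, 68.4 and 101 CPM in 16v. Its low 12v library (replicate 3) lay within the 16v range, and the log2 fold change was -1.05 ± 0.35 (-1.79 to -0.30). CFD, the secreted serine protease adipsin, averaged 224 ± 87.4 CPM in 12v and 105 ± 29.5 CPM in 16v (-1.05 ± 0.44). Its groups did not overlap, but the margin was very narrow, 143.9 CPM in 12v replicate 2 against 142.8 in 16v replicate 3. Without the muscle libraries the log2 fold changes were 1.32 for LPL, -0.95 for ADIPOQ and -0.99 for CFD.

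Other adipocyte genes, FABP4, PLIN1 and PPARG, had fold changes near 0. FABP4 averaged 32103 ± 9999.6 CPM in 12v and 28722 ± 11838 CPM in 16v (-0.16 ± 0.37, -0.96 to 0.64). PLIN1, the coat protein of the lipid droplet, gave 0.04 ± 0.47 (-0.97 to 1.05) and PPARG, the master regulator of adipocyte differentiation, -0.05 ± 0.48 (-1.09 to 0.99). Each of the 3 intervals spans 0. Over the adipocyte identity list, 13 of 20 tested members were above 0 with a median of 0.21, and 15 of 21 with a median of 0.27 without the muscle libraries. At an unadjusted p under 0.05 the list had 3 members higher and 2 lower of 20, against 2.25% and 2.43% of all genes. Without the muscle libraries the log2 fold change was 0.05 for FABP4, 0.24 for PLIN1 and 0.20 for PPARG.

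**Figure D3:**
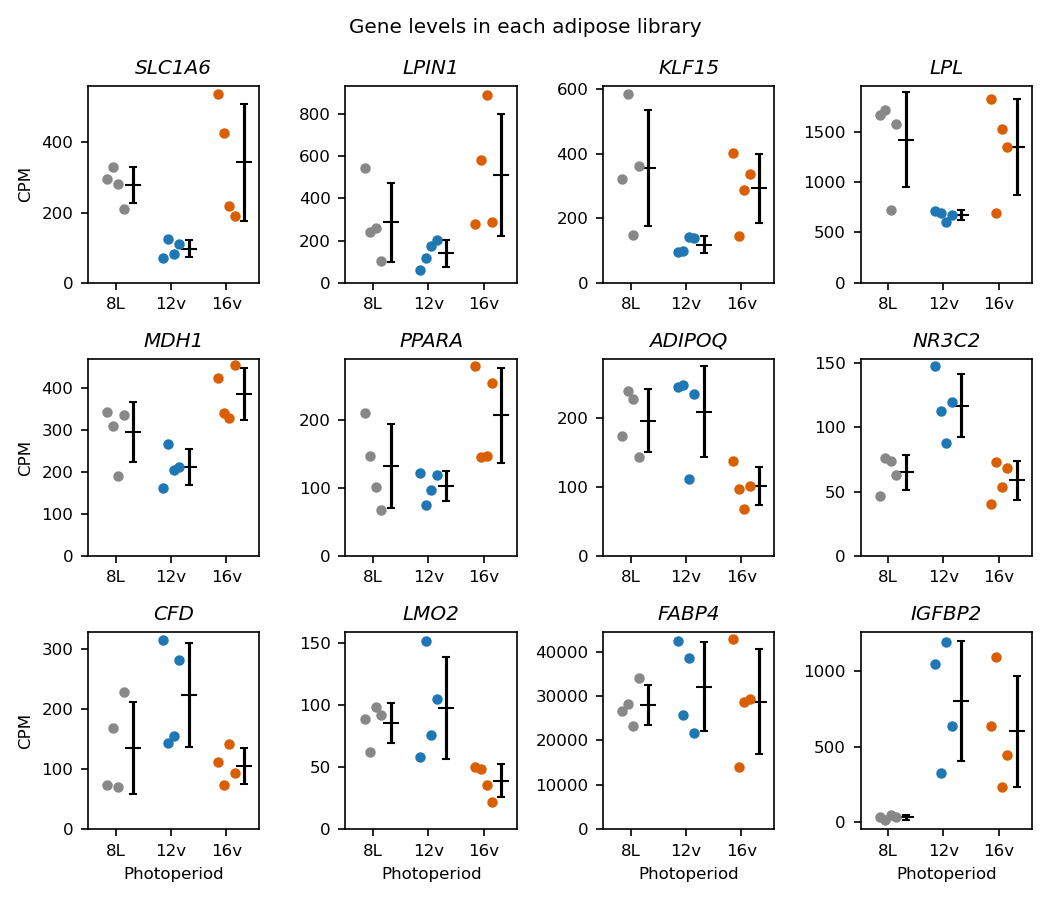
CPM of 12 named genes in each adipose library by photoperiod, with the mean and SD of each group (n = 4). SLC1A6, LPIN1 and KLF15 lie higher in every 16v library than in any 12v library, ADIPOQ and LMO2 average lower in 16v, and FABP4 and IGFBP2 overlap between 12v and 16v. In 16v replicate 2, KLF15, PPARA and NR3C2 each rest on 1 count of their largest transcript.

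Genes of triglyceride assembly lay above 0 as a group more often than all genes did, of which 48.4% were above 0. Of 12 tested members (16 of 25 listed are in the table), 11 were higher in 16v and the median log2 fold change was 0.59; without the muscle libraries 11 of 13 were, with a median of 0.80. Besides LPIN1, GPAT3, which adds the first fatty acid to glycerol phosphate, averaged 92.3 ± 30.2 CPM in 12v and 180.1 ± 60.1 CPM in 16v (0.98 ± 0.40). AGPAT2, which adds the second fatty acid, averaged 21.3 ± 6.17 CPM in 12v and 53.0 ± 46.1 CPM in 16v (1.37 ± 0.62), and its 122 CPM in 16v replicate 1 carried much of the mean, since the log2 fold change ran from 0.53 to 1.57 with a library left out. GPD1, the source of glycerol phosphate, averaged 5.17 and 19.5 CPM (1.75 ± 0.80). Without the muscle libraries the log2 fold changes were 1.32 for GPAT3, 1.74 for AGPAT2 and 1.12 for GPD1. None was called, and 4 of the 12 had an unadjusted p under 0.05, all higher in 16v, against 2.25% of all genes. The groups of 1 of the 12, LPIN1, did not overlap, against 1.2% of all genes that were higher without overlap. LPIN1 had already been named above for its small p in the same data.

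Fatty acid and cholesterol synthesis leaned the same way with large errors. Of 16 tested fatty acid synthesis genes 12 were above 0, with a median of 0.44 and 0.46 without the muscle libraries. FASN, the fatty acid synthase, had 117, 65.8, 78.7 and 85.4 CPM in 12v and 229, 72.9, 83.3 and 90.1 CPM in 16v (0.49 ± 0.46), and its sign changed with a library left out (-0.07 to 0.67). ACACA, which makes malonyl-CoA, gave 0.51 ± 0.41, ACLY, which supplies acetyl-CoA, 0.82 ± 1.10, and the desaturase SCD 0.86 ± 0.79. THRSP, a lipogenic regulator, gave 0.31 ± 0.56 and also changed sign (-0.28 to 0.64). SREBF1, the transcription factor of lipid synthesis, averaged 42.9 ± 26.1 CPM in 12v and 108 ± 55.8 CPM in 16v (1.21 ± 0.51). All 9 tested cholesterol synthesis genes were above 0 (median 0.59), as were 10 of 10 without the muscle libraries. Their list summed to 178, 167, 175 and 159 CPM in 12v and 586, 170, 174 and 233 CPM in 16v. Replicate 1 of 16v, which stays in without the muscle libraries, was the highest, and 16v replicates 2 and 3 lay inside the 12v range. With 1 library left out the median ran from 0.386 to 0.772. DHCR7, the last step of that pathway, had 12.7, 27.4, 29.2 and 29.0 CPM in 12v and 175, 12.2, 44.6 and 31.1 CPM in 16v and was highest in a single 16v library. Without the muscle libraries the log2 fold changes were 0.73 for FASN, 0.59 for ACACA, 1.57 for ACLY, 1.56 for SCD, 0.69 for THRSP, 1.37 for SREBF1 and 2.18 for DHCR7. ELOVL6 was too low to be tested.

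Lipolysis genes were near 0 at the median. Of the tested members 10 of 14 were above 0, and the median was 0.13. PNPLA2, the triglyceride lipase that starts lipolysis, had 819, 712, 1018 and 1122 CPM in 12v and 1037, 899.6, 4318 and 882 CPM in 16v (0.96 ± 0.50), but the log2 fold change was 0.02 without 16v replicate 3, the library at 4318 CPM. LIPE, the hormone-sensitive lipase, gave 0.23 ± 0.90 and its sign changed with a library left out (-0.79 to 0.84). CPT1A, which admits fatty acids to mitochondria, gave -0.90 ± 0.74. Leaving out the muscle libraries gave 1.43 for PNPLA2, 0.62 for LIPE and -0.69 for CPT1A. PDK4 was too low to be tested.

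Fatty acid oxidation was mixed, with a nuclear receptor and a carrier on the higher side. Of the 21 tested genes of fatty acid uptake and oxidation 14 were above 0, and the median was 0.18. PPARA, the nuclear receptor that drives fatty acid oxidation genes, had 122, 75.4, 96.2 and 118 CPM in 12v and 279, 146, 147 and 255 CPM in 16v. The groups did not overlap, and the log2 fold change was 1.02 ± 0.39 and 0.91 without the muscle libraries. The margin was 146 against 122 CPM, and the 146 CPM of 16v replicate 2 rested on 1 count of the largest PPARA transcript. SLC25A20, which carries acylcarnitines into mitochondria, averaged 16.9 ± 10.3 and 35.9 ± 7.05 CPM (1.01 ± 0.45, and 1.19 without the muscle libraries).

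Energy metabolism genes leaned higher in 16v, and part of this lean moved with the muscle libraries. Citric acid cycle genes were above 0 in 17 of 18 cases (median 0.48), and in 14 of 18 without the muscle libraries (median 0.31). MDH1, the cytosolic malate dehydrogenase, had 163, 266, 204 and 211 CPM in 12v and 424, 340.4, 327 and 454 CPM in 16v, without overlap (0.87 ± 0.28, and 0.95 without the muscle libraries). For the respiratory chain 54 of 56 subunits were above 0 (median 0.41; 52 of 56 and 0.44 without the muscle libraries). NDUFS3, a core subunit of complex I, averaged 136 ± 52.5 and 233 ± 52.4 CPM (0.78 ± 0.32, and 0.41 without the muscle libraries). Glycolysis genes behaved differently: 12 of 15 were above 0 with a median of 0.45, but 7 of 15 with a median of -0.04 without the muscle libraries. The median of glycogen genes was 0.47, and 0.19 without the muscle libraries. None of these lists held a called gene.

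**Figure D4:**
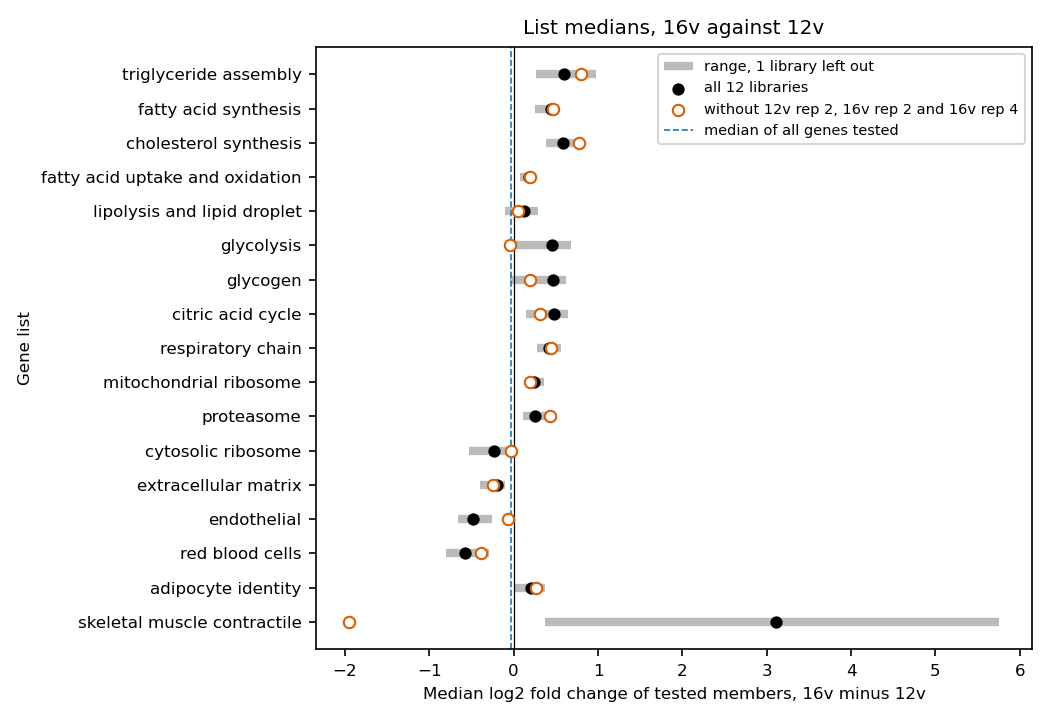
Median log2 fold change (16v minus 12v) of the tested members of 17 lists, with all libraries (black) and without 12v replicate 2, 16v replicate 2 and 16v replicate 4 (orange); grey bars span the values with 1 library left out and the dashed line is the median of all genes. Contractile genes move from 3.11 to -1.96 and glycolysis from 0.45 to -0.04, while the respiratory chain stays at 0.41 and 0.44. The 3 libraries were picked by their contractile sum, so the fall of the contractile median follows from that choice.

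Cytosolic and mitochondrial ribosomal protein genes lay on opposite sides of 0 with all libraries. Cytosolic ribosomal proteins were above 0 in 6 of 68 cases (median -0.23), and in 30 of 68 without the muscle libraries (median -0.03), close to the 48.4% of all genes. With 1 library left out their median ran from -0.524 to -0.0176. Mitochondrial ribosomal proteins were above 0 in 44 of 58 cases (median 0.24). MRPL48, a protein of their large subunit, averaged 26.0 ± 7.13 and 62.2 ± 25.6 CPM without overlap. The MRPL48 margin was narrow, 35.7 against 33.1 CPM. Its 97.3 CPM in 16v replicate 2 rested on 4 counts of its largest transcript. Proteasome subunits were above 0 in 26 of 29 cases (median 0.26; 0.43 without the muscle libraries). PSMD4, the ubiquitin receptor of the proteasome, averaged 25.5 ± 4.43 CPM in 12v and 49.5 ± 17.2 CPM in 16v, again without overlap. Its lowest 16v value, 36.5 CPM in replicate 2, was 3 counts. Translation factors were near 0, with 15 of 35 above it (median -0.05).

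Among the marker lists of other cell types, each summed over all its members, those of lymphocytes alone were separate between the groups. None of the 8 tested endothelial genes was above 0 (median -0.48), and 3 of 8 were without the muscle libraries (median -0.07); their sum ranged over 1049.7 to 3058 CPM in 12v and 966 to 1978 CPM in 16v. PECAM1, an adhesion molecule of endothelium, gave -0.63 ± 0.47, and -0.07 without the muscle libraries. Lymphocyte genes summed to 96.6, 98.7, 131 and 130.1 CPM in 12v and 26.7, 36.5, 71.4 and 90.1 CPM in 16v, without overlap. Only 3 of these genes could be tested, each lower in 16v, and the 16v replicate 2 value equals 3 counts. PTPRC, a member with 15 transcripts, gave 35.6, 39.8, 81.6 and 83.7 CPM of the 12v sums. In 16v it gave 1.67, 12.2, 0 and 58.0 CPM. Its largest transcript had 1, 2, 2 and 8 counts in 12v and 0, 0, 0 and 4 in 16v. The separation of the lymphocyte sums therefore depends on PTPRC and on transcript numbers. Macrophage and granulocyte genes summed to 206 to 507 and 296 to 365 CPM. Red blood cell genes summed to 3927 to 8857 and 3234 to 6098 CPM, and fibroblast and progenitor genes to 7243 to 9710.3 and 3899.8 to 10101 CPM. Smooth muscle genes summed to 612 to 1571 and 759 to 5606 CPM, the highest again in 16v replicate 4. TPM2, which is also on the contractile list, gave 5186 CPM of that highest sum, so the sum does not stand for smooth muscle alone. Of the 10 tested smooth muscle members 9 were below 0 (median -0.67, and -0.34 without the muscle libraries). Extracellular matrix genes were above 0 in 10 of 31 cases (median -0.20). Of the hepatocyte list 4 of 4 tested members were above 0 (median 0.93; 0.55 without the muscle libraries), and its sum ranged over 4084 to 13364 and 5276 to 21864 CPM, mostly APOA1, an apolipoprotein that bird tissues other than liver also make. ALB, serum albumin, had 0, 9.60, 14.6 and 4.14 CPM in 12v and 1.67, 523, 1.49 and 37.3 CPM in 16v, the high value being 11 counts of its largest transcript in the shallow library. Neuron and glia genes summed to 2.54, 17.8, 0 and 77.9 CPM in 12v and 1.67, 279.6, 125 and 35.2 CPM in 16v, again highest in that library. A single member with 11 transcripts, MBP, gave 255 CPM in 16v replicate 2 and 125 CPM in 16v replicate 3. Its largest transcript had 2 and 8 counts there. Markers of mesothelium reached no more than 5.83 CPM in sum. The part of cell make-up in the gene results was not tested.

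Hormone and clock genes gave few separations. NR3C2, the mineralocorticoid receptor, had 147, 112, 87.5 and 119 CPM in 12v and 40.1, 72.9, 53.5 and 68.3 CPM in 16v, without overlap (-1.02 ± 0.32, and -1.34 without the muscle libraries). The largest NR3C2 transcript had 10, 14, 5 and 24 counts in 12v and 4, 1, 6 and 11 in 16v, so its separation rests on few reads. PIK3R1, a regulatory subunit of PI3-kinase in insulin signalling, averaged 59.0 ± 30.2 and 126 ± 27.8 CPM (1.06 ± 0.37, and 1.60 without the muscle libraries). IGFBP2, which binds insulin-like growth factors, averaged 801 ± 399 CPM in 12v and 602 ± 368 CPM in 16v (-0.43 ± 0.53), against an 8L mean of 29.1 ± 14.4 CPM. Its log2 fold change without the muscle libraries was -1.16. GHR, the growth hormone receptor, gave 0.33 ± 0.54, and EPAS1, a hypoxia-inducible factor, -0.30 ± 0.49; without the muscle libraries these were 0.13 and 0.26. Clock genes were above 0 in 6 of 14 cases (median -0.08). ARNTL, the partner of CLOCK, had 2.54, 58.9, 43.7 and 31.5 CPM in 12v and 13.4, 0, 10.4 and 18.6 CPM in 16v (-1.42 ± 0.69), with overlap, and NR1D2, a repressor in the same loop, gave -0.49 ± 0.48. With those libraries out ARNTL stood at -1.13 and NR1D2 at -0.65. DIO2, THRA and LEPR, for thyroid hormone activation, thyroid hormone reception and leptin reception, were too low to be tested.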

How the data were processed

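The deposited adipose table holds expected counts (estimated counts per transcript) for 12 libraries, 51835 transcripts of 15542 genes. Per the submitters' processing notes the authors used minimap2 and Salmon; the sources used here give no version, genome build or annotation. Of the values, 99.56% are whole within 1e-06. Of 12244 genes with a symbol, 10462 symbols and 0 accessions were found in the quail RefSeq table.

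Transcript rows were summed per gene and rounded. The 12 adipose libraries (8L, 12v, 16v; 4 each) entered 1 edgeR quasi-likelihood fit (filterByExpr, minimum count 10 and total 15; TMM factors; robust; 9 residual degrees of freedom) and 16v minus 12v was tested over 6494 genes, Benjamini-Hochberg threshold 0.05. SE is approximate: the absolute log2 fold change divided by the root of F; intervals are 95%. CPM uses TMM-scaled filtered totals. Counting intervals and floors of 3 counts cover counting error only, since PCR reads carry no molecular identifiers. Tests were tested on simulated data. Software was R 4.3.3, edgeR 4.0.16, limma 3.58.1, DESeq2 1.42.0, Python 3.11.15 and matplotlib 3.10.9.

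The groups compared, the 41 gene lists and the panel of 22 genes were chosen with earlier results of these data known. Genes named were, since none passed, the 10 higher and 10 lower with a symbol and the smallest p, up to 4 members of each list with the smallest p, the muscle genes and the panel. Alternatives were other normalizations, filters and tools, fewer libraries, the replicate block, 1 transcript per gene and a muscle score as covariate. Pseudocounts did not apply. Some genes that the rule names are not reported here.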

Additional observations from a re-analysis of the deposited data

Results flagged for a closer look

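In groups of 4, a value was picked out when its gap to the nearest other value exceeded Dixon's 95% critical share of the group's range. For independent values with a normal spread, chance picks out about 1 in 20 groups. Here 30 values were picked out over 151 groups tested, 10 of them in 16v replicate 4. These counts cannot be compared with chance, because the groups were not independent. They included genes named for a small p in these data and muscle genes that were high in the same libraries. A group with counts in a single library, such as FBXL7 in 16v, is always picked out. Of the 30, 15 were skeletal muscle genes in 12v replicate 2 and 16v replicate 4: MYLPF at 709 and 3881 CPM, MYL1 at 958 and 7900.1, TNNI2 at 467 and 3706, TNNC2 at 90.5 and 1485, TNNT3 at 7399 and 52966, and PVALB at 156 and 2096. In 12v replicate 2 alone, ACTA1 stood at 685 CPM, NEB at 2006 and TTN at 98.7. The contractile list summed to 14622 CPM in 12v replicate 2 and 103164 in 16v replicate 4, where the excitation and calcium list summed to 3199.8 and the smooth muscle list to 5606. TPM2, which is on the contractile list too, gave 5186 CPM of the smooth muscle sum there. Low sums included the macrophage and granulocyte list at 206 CPM in 12v replicate 2.

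The other values lay in single genes. In 16v, PNPLA2 was high at 4318 CPM in replicate 3, and FASN at 229 and AGPAT2 at 122 CPM in replicate 1. Also in 16v, FBXL7 at 6.68 CPM in replicate 1 and CACNB2 at 11.4 CPM in replicate 4 were the only values above 0 of their group. In 12v, G2E3 stood apart at 6.63 CPM in replicate 4 and FBXL7 at 38.4 CPM in replicate 2, while HOXA3 at 29.2 and ADIPOQ at 111 CPM in replicate 3 and DHCR7 at 12.7 CPM in replicate 1 were low. The reasons were not tested.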

How the results depend on the processing

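The count of genes called was 0 in each alternative except DESeq2, which called 5. The number of genes at an unadjusted p under 0.05 was 304, and lay within 1.5 times of it except without a count filter (756 of 15527 genes), with a stricter filter (176 of 3886), with the 12v and 16v libraries alone (163 of 5090) and with 1 transcript per gene and the 3 muscle libraries out (183 of 4162). With 1 library left out it ran from 243 to 417, with lowest adjusted p in edgeR of 0.0614 (without 16v replicate 4) and 0.0878 (without 16v replicate 1). Over 51 genes and 28 settings, 1328 of 1355 log2 fold changes kept their direction. Many of these genes were picked for a small p in the same data, and each setting reused all or most of the same libraries. The count therefore cannot decide how robust the directions are. Reversed values with 1 library left out fall in these ranges: FABP4 -0.43 to 0.069, PPARG -0.354 to 0.25, PLIN1 -0.21 to 0.28, EPAS1 -0.53 to 0.097, FASN -0.066 to 0.67, LIPE -0.79 to 0.84 and THRSP -0.28 to 0.64. The medians ran from -0.099 to 0.28 for lipolysis, from -0.031 to 0.68 for glycolysis and from 0.372 to 5.755 for contractile genes. PPARG was 0.045 with library size alone. Under limma-voom PLIN1 was -0.033, LIPE -0.454 and GHR -0.035. Without the 3 muscle libraries FABP4 was 0.054, PPARG 0.195, EPAS1 0.261, the contractile median -1.956 and the glycolysis median -0.038. With 8L replicate 1 out as well these were 0.047, 0.188, 0.253, -1.765 and -0.060, and FASN was 0.718; with 1 transcript per gene and the 3 libraries out they were 0.021, 0.165, 0.223, -1.976 and -0.089. The muscle score averages the log2 CPM of the same contractile genes, so a contractile median near 0 with it was set in advance. With this score as covariate the contractile median was -0.046. With 1 transcript per gene as well it was -0.137, and PPARG was 0.0024. The alternatives chosen after seeing the data were these combinations and the omission of the near-identical loci. The 3 muscle libraries were picked by their contractile sum, so the fall of the contractile median without them follows from that choice. The causes of the other changes were not tested. Of the 304 genes, 302 were tested without the muscle libraries, 281 with the same sign and 96 still under 0.05. Deviations of same-numbered 12v and 16v libraries had correlations of 0.0473, 0.0391, -0.0189 and 0.00212. Replicate 1 was still its own best match in both directions and replicate 2 in 1. With 4 libraries a group, these values cannot decide whether the numbers pair libraries. With the replicate block 0 genes were called, 226 had an unadjusted p under 0.05, and LIPE was -0.54. Depth limits 16v replicate 2 most, where 3 counts equal 36.5 CPM.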
